A study of Homo sapiens with 14 samples.

Results

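Leukocyte adhesion molecules and integrins carry blood cells along and through vessel walls and hold them in the marrow. The 9 genes described here are SELPLG, ITGB2, ITGAL, ITGAM, ITGAX, ITGA4, ITGB1, CD44 and PECAM1, out of 58037 gene IDs counted in the study. They are well-known adhesion receptors of myeloid cells, picked by name with earlier results of these data known. Their counts beside the shares of all genes therefore describe this set only. All 9 were present once in the deposited count table. They were followed in OCIAML2, a human acute myeloid leukaemia cell line, across 5 groups. The first held 4 total RNA libraries of RUNX1-mutant cells given 100 nM HHT for 8 h, 2 each from lines F3 and G7. The second held 4 control libraries of the same mutant lines, again 2 per line. The third held 2 total RNA libraries of wild-type parent cells. RiboLace gave 2 libraries of mutant line F3 and 2 of the wild-type parent. The mutant genotype is labelled Runx1R174*/wt, a stop codon in 1 allele of the transcription factor RUNX1, and wild type is Runx1wt/wt. HHT is homoharringtonine, which blocks translation elongation, and RiboLace pulls down RNA on active ribosomes with a puromycin-like probe.

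The labels limit these groups in several ways. Control libraries carry a treatment label of 8 h but a description of 0 h, so HHT and time in culture cannot be told apart if the description holds. Wild-type total RNA libraries carry no treatment label, though their description is 0 h, like that of the controls. Since only the mutant side carries a treatment label, genotype and control handling cannot be told apart in total RNA. RiboLace libraries carry neither a treatment label nor a time in their description. Assay and handling therefore cannot be told apart where RiboLace is set against total RNA. The parent is 1 line and RiboLace used 1 mutant line, so genotype and line cannot be told apart there. Nothing states that replicates were separate cultures, and every p-value therefore measures only the spread between these libraries. Total RNA libraries held 19250789 to 21925693 counts and RiboLace libraries 465052 to 2034796. Protein-coding genes took 97.8% to 98.3% of counts in total RNA and 74.5% to 77.9% in RiboLace. The members together took 0.0867% to 0.0942% of counts after HHT, 0.141% to 0.178% in mutant controls and 0.145% to 0.157% in wild type. All 10 myeloid markers examined had a mean of at least 1 CPM (read counts scaled to library size by TMM within each assay) in mutant controls and in wild type, and 4 erythroid markers had 0 reads in every group.

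Leukocytes first tether and roll on vessel walls through selectins, then stop when integrins are switched on from inside the cell and grip their ligands, and finally pass between endothelial cells. Integrins are heterodimers of an alpha and a beta chain, and a chain without its partner is generally not carried to the surface. ITGB2 is the shared beta chain of the leukocyte integrins and pairs with ITGAL, ITGAM or ITGAX. ITGB1 pairs with ITGA4 to bind VCAM1 on marrow stroma and endothelium. SELPLG encodes the P-selectin glycoprotein ligand, CD44 is the main hyaluronan receptor, and PECAM1 is an immunoglobulin-family molecule of leukocyte and endothelial cell contacts.

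The 4 alpha chains share a short conserved motif just inside the membrane, glycine-phenylalanine-phenylalanine-lysine-arginine, which holds the alpha and beta tails together. The coding stretch around it is given for each, since the members differ in expression although they are built alike and the 3 partners of ITGB2 lie on the same chromosome. Sequences are from GENCODE release 29 on GRCh38, plus strand, 5′ to 3′, with the 15 bases of the motif in capitals. Each stretch is split by 1 intron, so that the coordinates span it.
ITGAL, chr16:30519956-30521524, exons 30 and 31: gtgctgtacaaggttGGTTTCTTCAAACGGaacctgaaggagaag
ITGAM, chr16:31331264-31331668, exons 29 and 30: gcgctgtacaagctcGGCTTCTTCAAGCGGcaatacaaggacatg
ITGAX, chr16:31380996-31381835, exons 29 and 30: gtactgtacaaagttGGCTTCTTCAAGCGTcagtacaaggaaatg
ITGA4, chr2:181534924-181535464, exons 27 and 28: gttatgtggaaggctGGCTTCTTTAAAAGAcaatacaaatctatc
ITGAM and ITGAX were identical at 37 of the 45 bases, ITGAL and either of them at 33, and ITGA4 and ITGAL at 25. The tail beyond the motif had 51 residues in ITGAL, 17 in ITGAM, 34 in ITGAX and 25 in ITGA4. It was counted in the annotated transcript with the longest complete coding sequence of each gene, and other forms may differ. Despite this likeness, transcripts of ITGAM and ITGAX shared 21 stretches of 50 bases out of 5767 in ITGAM and 7381 in ITGAX. ITGAX shared 67 such stretches with ITGAD. ITGB1 is the member with the most sequence found in other genes, 8.86% of its stretches and mainly AC022149.1, so a small part of its reads may be placed uncertainly. Antisense genes overlap exons of ITGB2, ITGAL and CD44, and a long noncoding RNA those of ITGB1. None of these had more than 10 reads in a library, against up to 10405 reads for ITGAL.

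Levels per kilobase of exon placed SELPLG first in every group without HHT. The length joins the exons of all annotated transcripts, 2494 bases in SELPLG, 6472 in ITGAL, 6797 in ITGB2 and 10004 in CD44. Transcripts in use may be shorter, so the order of genes depends partly on this length. The SELPLG mean was 125 CPM per kb in mutant controls and 102 CPM per kb in wild-type total RNA. ITGAL followed at 67.7 and 79.2 CPM per kb in the same 2 groups, then CD44 at 36.7 and 35.6, and ITGA4 at 28.0 and 20.9. PECAM1, ITGB1 and ITGB2 lay between 12.3 and 21.0 CPM per kb in both groups. ITGAX at 2.19 and 0.757 CPM per kb and ITGAM at 0.882 and 0.532 were the lowest members. Libraries of neighbours in this order did not overlap, except for ITGB1 and ITGB2 in mutant controls, and for ITGA4 and ITGB2 and for ITGB1 and PECAM1 in wild type. After HHT the order changed. ITGAL stood first at 48.8 CPM per kb, and SELPLG sixth at 2.86, where its libraries overlapped those of ITGAX at 2.39. ITGAM remained last at 0.417 CPM per kb.

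**Figure D1:**
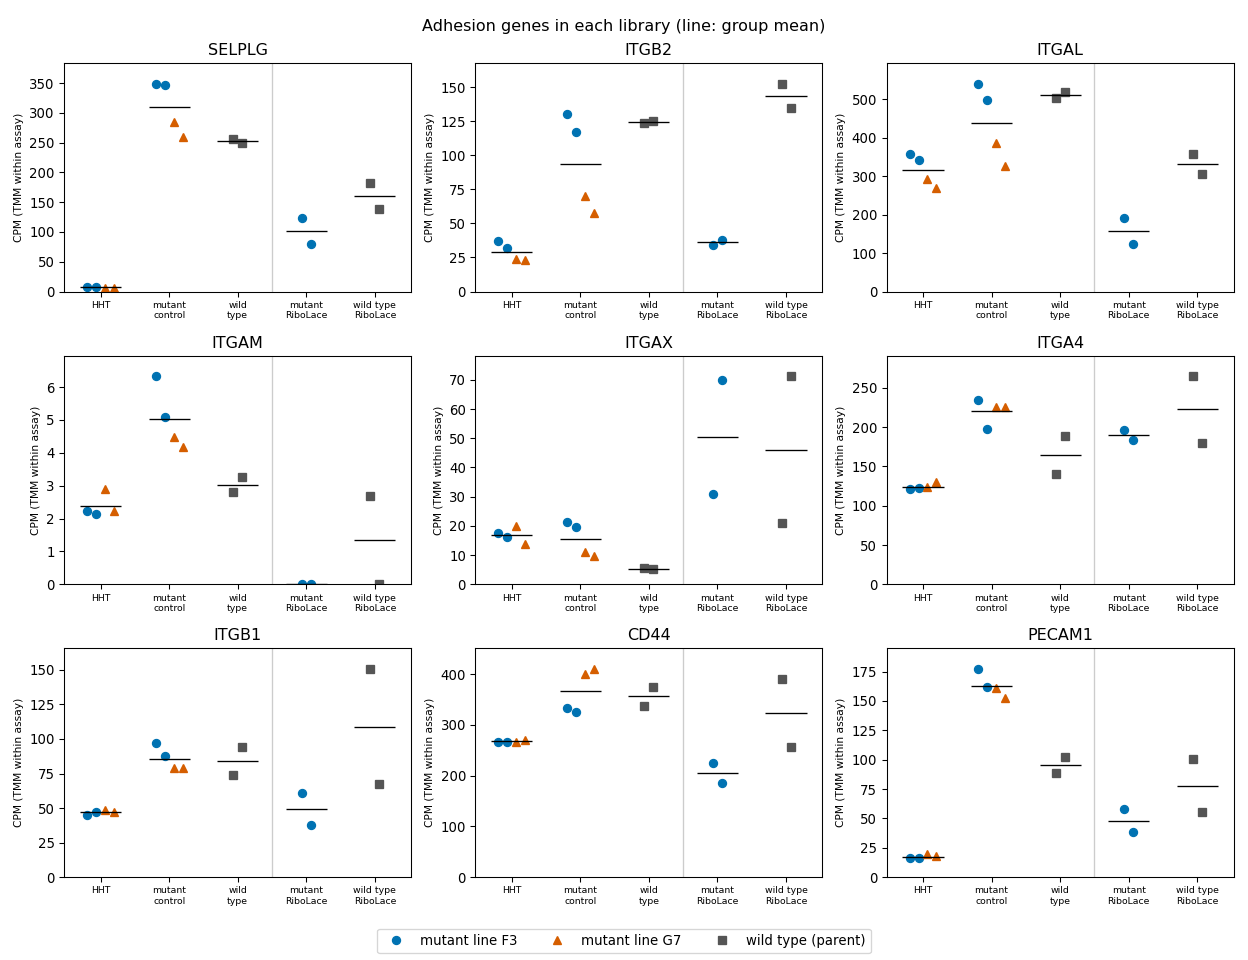
CPM of the 9 members in each library (vertical axes linear and starting at 0), for HHT, mutant control and wild-type total RNA left of the grey line and mutant F3 and wild-type RiboLace right of it. Points are libraries, coloured by line, and bars are group means. SELPLG and PECAM1 lie far lower after HHT, and ITGB2 is low in mutant RiboLace.

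HHT was compared with control in the 8 mutant libraries, the comparison that asks how stopping translation changes these mRNAs. Of the 9 members, 8 fell, none rose and ITGAX did not pass the test. Across all 13621 genes tested, 39.3% fell and 39.9% rose (edgeR quasi-likelihood test with line as a covariate, Benjamini-Hochberg adjusted p under 0.05). The median log2 fold change of the members was -0.88, beside -0.0018 for all genes tested. SELPLG and PECAM1 stood at places 15 and 175 from the lowest fold change in that list. In bulk libraries, fewer cells of a type and less RNA per cell cannot be told apart, and all fold changes are relative to the other RNAs of the same library.

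SELPLG, the ligand with which leukocytes roll on selectins, showed the largest change among the members. It had 8.11 and 7.66 CPM in the F3 libraries and 6.47 and 6.34 CPM in the G7 libraries after HHT. Controls had 349 and 348 CPM in F3, and 285 and 260.1 CPM in G7. No HHT library came near any control library. The log2 fold change was -5.45 ± 0.07 (SE), a fold of 0.0230, with an adjusted p of 2.83e-15 by edgeR. The fall was -5.39 ± 0.10 in G7 and -5.46 ± 0.10 in F3, and the difference between the lines was 0.08 with an interval of 2 SE from -0.20 to 0.35.

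PECAM1, which engages itself across cell contacts, fell next. HHT libraries had 16.5 and 16.0 CPM in F3 and 19.3 and 17.9 CPM in G7, while controls had 177 and 162 CPM in F3 and 161 and 152 CPM in G7. The groups were far apart in both lines. The log2 fold change was -3.23 ± 0.08 (adjusted p 9.88e-13, edgeR). PECAM1 is also a classical endothelial gene, so that endothelial markers are of interest beside it. Their summed level over 6 genes was 0.206 to 0.473 CPM after HHT and 0.103 to 0.216 CPM in controls, with CDH5 and KDR at 0 reads in both groups.

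ITGB2, the common beta chain of the leukocyte integrins, had 36.9 and 31.9 CPM in F3 and 24.2 and 23.3 CPM in G7 after HHT. Controls had 130.2 and 117 CPM in F3, and 70.0 and 57.9 CPM in G7. Every HHT library was below every control library, and within each treatment both G7 libraries were below both F3 libraries. The log2 fold change was -1.65 ± 0.10 (adjusted p 2.67e-09, edgeR).

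Its alpha partners changed less. ITGAL, the alpha chain of the integrin that binds ICAM1, had 359 and 342 CPM in F3 and 292 and 271 CPM in G7 after HHT, against 542 and 499 CPM in F3 and 386 and 326 CPM in G7 controls. The ranges overlapped across lines but not within a line, and the log2 fold change was -0.46 ± 0.08 (adjusted p 7.09e-05, edgeR). ITGAM, a receptor subunit for complement fragments on mature myeloid cells, had 2.23, 2.15, 2.89 and 2.22 CPM after HHT and 6.33, 5.09, 4.47 and 4.19 CPM in controls. It fell by 1.08 ± 0.17 on the log2 scale (adjusted p 4.41e-05, edgeR) at a level that was low throughout. ITGAX, a chain typical of dendritic cells and macrophages, gave 17.6 and 16.1 CPM in F3 and 20.0 and 13.9 CPM in G7 after HHT. Its controls gave 21.5 and 19.6 CPM in F3, and 11.2 and 9.86 CPM in G7. The pooled log2 fold change was 0.17 ± 0.18, with an interval from -0.19 to 0.52 and an adjusted p of 0.393 by edgeR. Without HHT replicate 3 or control replicate 4, both from G7, the pooled value was slightly below 0, at -0.025 and -0.00394.

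Since ITGB2 fell more than ITGAL, the ratio of the 2 transcripts shifted. ITGAL exceeded ITGB2 per kilobase by 10.2 and 11.3 times in F3 and 12.7 and 12.2 times in G7 after HHT. In controls the ratio was 4.37 and 4.47 in F3 and 5.80 and 5.92 in G7. All HHT libraries were above all control libraries. For ITGA4 over ITGB1 the ratio was 1.93 to 2.11 after HHT and 1.72 to 2.18 in controls, intermixed across lines but not within a line. In F3 it was higher after HHT, at 2.05 and 1.98 against 1.83 and 1.72 in controls. In G7 it was lower after HHT, at 1.93 and 2.11 against 2.17 and 2.18. These ratios are a description chosen after the values were seen and carry no test. Their size depends on the joined exon lengths, which are the same in every library.

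**Figure D2:**
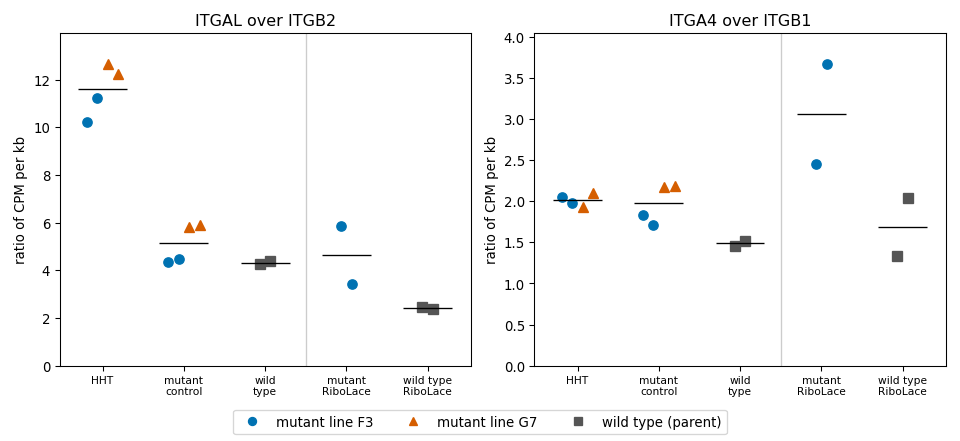
Ratio of CPM per kb of an integrin alpha chain to its beta chain in each library (vertical axes linear from 0), ITGAL over ITGB2 on the left and ITGA4 over ITGB1 on the right. Points are libraries, coloured by line, and bars are group means. ITGAL over ITGB2 is 10.2 to 12.7 after HHT and 4.37 to 5.92 in mutant controls.

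The very late antigen pair fell together. ITGA4, the alpha chain that binds VCAM1, had 121 and 123 CPM in F3 and 123 and 130.0 CPM in G7 after HHT. Controls had 234 and 198 CPM in F3, and 226 in each G7 library. ITGB1, the most widely used integrin beta chain, had 44.8 to 48.5 CPM after HHT and 78.6 to 97.3 CPM in controls. Neither gene overlapped between groups. Log2 fold changes were -0.84 ± 0.06 for ITGA4 and -0.88 ± 0.08 for ITGB1, with adjusted p of 2.51e-08 and 9.29e-08 by edgeR. CD44, which binds hyaluronan and osteopontin, had 267, 266, 267 and 271 CPM after HHT and 334, 326, 400.2 and 409.7 CPM in controls. It fell by 0.46 ± 0.06 on the log2 scale (adjusted p 1.22e-05, edgeR). The HHT libraries of CD44 lay close together, whereas its controls split by line, with G7 higher.

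The fall of 8 members held when each library was left out in turn, with other scalings, without a filter and with DESeq2 or limma-voom. Library totals alone moved the median of all genes to 0.23 and the split of calls to 61.9% higher and 38.1% lower, against 50.4% and 49.6% with TMM. ITGAL and CD44 were then at -0.23 and -0.22 and still passed. Myeloid markers moved with it, since the summed level of the 10 markers was 2493 to 2616 CPM after HHT and 6249 to 7607 CPM in controls, with CSF1R under 1 CPM on average after HHT. Their part in the result was not tested.

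Line dependence of the HHT response was tested as an interaction in the same 8 libraries. ITGAX alone passed, with a G7 minus F3 difference of 0.99 ± 0.21 (adjusted p 0.0141, edgeR), so that 1 of 9 members was higher and none lower, beside 1.79% higher and 2.00% lower of 14435 genes. Within G7, ITGAX rose by 0.71 ± 0.16 (adjusted p 0.00069, edgeR). Within F3, the log2 fold change was -0.29 ± 0.14 (adjusted p 0.0863, edgeR) in the shared fit and -0.32 in a fit of F3 alone, where the adjusted p was 0.00969. After HHT the lines were close, with means of 16.9 CPM in G7 and 16.8 CPM in F3, whereas untreated they stood at 10.5 CPM in G7 and 20.5 CPM in F3. The interaction did not pass without control replicate 1 (0.96, adjusted p 0.111) or without HHT replicate 3 (0.70, adjusted p 0.0719). In 7 of the other 8 members the estimate was also positive, and CD44 at -0.26 was the exception, but none of these passed. Without control replicate 3, ITGB2 (0.61, adjusted p 0.0116) and ITGAL (0.41, adjusted p 0.0346) passed as well.

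**Figure D3:**
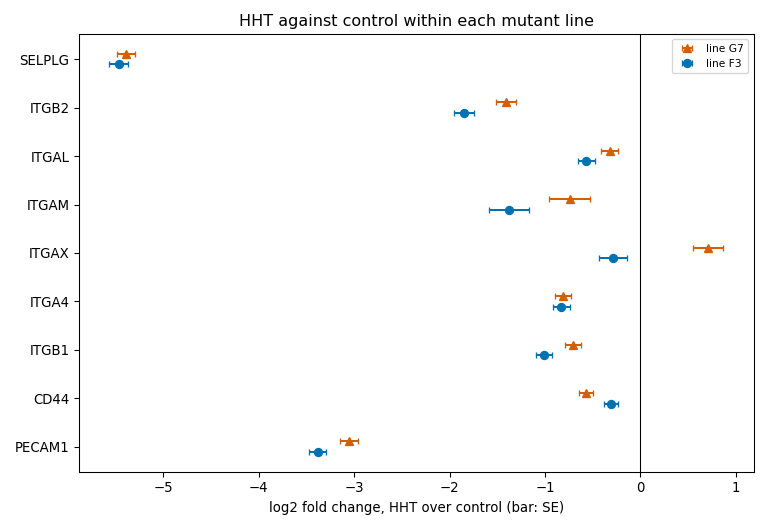
Log2 fold change of each member for HHT over control (horizontal axis) in line G7 (triangles) and line F3 (circles), with bars of 1 SE. ITGAX lies at 0.71 in G7 and at -0.29 in F3, and the other 8 members lie below 0 in both lines.

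Genes related to the members by pathway were also counted under HHT, from 7 lists. Among other integrin alpha subunits 6 of 14 were tested, of which 4 fell and 2 rose. ITGA5, the fibronectin receptor chain, fell by 1.77 ± 0.09 on the log2 scale, ITGA7, a laminin receptor chain, fell by 2.42 ± 0.16, and ITGAE, which pairs with ITGB7, rose by 1.46 ± 0.10. Among other beta subunits 2 of 4 fell and 1 rose, all at low levels. ITGB4 fell by 1.81 ± 0.21, ITGB7 fell by 1.41 ± 0.25, and ITGB8 rose by 6.04 ± 0.29 with a mean of only 1.96 CPM over these libraries. Of selectins and enzymes that build their ligands, 8 of 10 tested fell and 1 rose. The falls included ST3GAL4 (-1.83 ± 0.06), FUT4 (-1.55 ± 0.08) and FUT7 (-1.99 ± 0.13), the sialyl- and fucosyltransferases that decorate selectin ligands such as the product of SELPLG.

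Integrin activators and linkers were mixed, with 11 of 23 lower and 5 higher. TLN1 and TLN2, the talins that bind beta tails and switch integrins on, fell by 1.58 ± 0.07 and 3.24 ± 0.13, and the kindlin FERMT1 fell by 1.40 ± 0.08. Counter-receptors and junction molecules had 6 of 11 lower and none higher, among them CD99L2, F11R and ICAM2 at -1.22, -1.27 and -1.26. CD44 partners, hyaluronan enzymes and ERM linkers had 6 of 11 lower and 3 higher. SPP1, which encodes osteopontin, fell by 4.28 ± 0.14, CD74 fell by 2.12 ± 0.10 and the hyaluronidase gene HYAL3 fell by 1.44 ± 0.07. Leukocyte tetraspanins, which organise integrins in the membrane, had 7 of 9 lower and 2 higher, with TSPAN14 at -1.81, CD81 at -1.37 and CD37 at -1.15. Medians of the 7 lists ran from -1.78 to -0.17, and all sets stand beside the 39.3% of genes that fell.

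Genes whose pattern over the 10 total RNA libraries was nearest to that of the 3 most changed members were found by the root mean square difference of centred log2 CPM among 9765 protein-coding genes. For SELPLG these were EFNA3, DACT3 and SLC6A8 at distances of 0.317, 0.354 and 0.373. SLC6A8, the creatine transporter, averaged 8.17 CPM after HHT, 280 CPM in mutant controls and 292 CPM in wild type. For PECAM1 they were SLC29A4, TLN2 and GM2A at 0.184, 0.185 and 0.195. For ITGB2 they were IL12RB1, CLSTN2 and FLT3 at 0.143, 0.144 and 0.152, and the receptor kinase gene FLT3 averaged 22.1 CPM after HHT, 73.0 CPM in mutant controls and 89.2 CPM in wild type.

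Mutant cells were then compared with wild type in total RNA, the comparison that asks what the RUNX1 stop allele changes. With both lines as 1 mutant group, 2 of 9 members rose and none fell, beside 2.49% and 2.07% of 13949 genes. ITGAX had 21.5 and 19.6 CPM in F3 and 11.2 and 9.86 CPM in G7, against 5.61 and 5.10 CPM in wild type. Every mutant library was above both wild-type libraries, and F3 was the higher line. The log2 fold change was 1.53 ± 0.33 (adjusted p 0.037, edgeR). PECAM1 had 177, 162, 161 and 152 CPM in mutant libraries against 89.0 and 102 CPM in wild type. All mutant libraries were again higher, and the log2 fold change was 0.76 ± 0.11 (adjusted p 0.00603, edgeR). Both calls were lost without either wild-type library. With either wild-type library left out, the log2 fold changes stayed between 1.46 and 1.60 for ITGAX and between 0.67 and 0.86 for PECAM1. With limma-voom ITGAX did not pass, at an adjusted p of 0.0672. Myeloid markers moved here too, with a summed 6249 to 7607 CPM in the mutant and 3166 to 3854 CPM in wild type, and their part in the result was not tested.

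The remaining members did not pass in that fit. ITGAM gave 0.72 ± 0.23 (adjusted p 0.107) and ITGA4 0.41 ± 0.13 (adjusted p 0.106) by edgeR. ITGA4 passed with DESeq2 (0.0396) and, like ITGB2 (0.0185), with no filter (0.0188), and both passed when each line was its own group and the mean of both was set against wild type (0.0151 for ITGA4 and 0.00165 for ITGB2), as did SELPLG (0.0312) and ITGAM (0.0143). SELPLG gave 0.29 with an interval from 0.01 to 0.56, and ITGB1 and CD44 gave 0.02 and 0.04 with intervals from -0.25 to 0.28 and from -0.21 to 0.28. ITGB2 and ITGAL gave -0.42 and -0.23, and here the lines differed. Against wild type in separate fits, ITGB2 in G7 fell by 0.97 ± 0.13 (adjusted p 1.4e-05, edgeR) and in F3 gave -0.02 ± 0.10 (adjusted p 0.931). ITGAL in G7 fell by 0.53 ± 0.12 (adjusted p 0.00336, edgeR) and in F3 gave 0.01 ± 0.10. ITGAX rose in both, by 0.97 ± 0.18 in G7 and 1.93 ± 0.15 in F3, and PECAM1 rose by 0.71 ± 0.12 in G7 and 0.82 ± 0.11 in F3. ITGA4 also passed in each line alone, with 0.45 in G7 and 0.38 in F3. In F3 alone SELPLG rose by 0.45 ± 0.10 (adjusted p 0.00126, edgeR) and ITGAM by 0.90 ± 0.21 (adjusted p 0.00293), and neither passed in G7 alone. The fit of G7 called 3 of 9 members higher and 2 lower, beside 15.1% of genes in either direction, and that of F3 called 5 higher and none lower, beside 22.7%. Both share the 2 wild-type libraries.

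The 2 untreated mutant lines, which carry the same labelled genotype, were compared directly. In G7 4 of 9 members were lower than in F3 and none was higher, beside 8.52% lower and 7.37% higher of 13634 genes. ITGAX had 11.2 and 9.86 CPM in G7 and 21.5 and 19.6 CPM in F3, a log2 fold change of -0.96 ± 0.14 (adjusted p 2.8e-06, edgeR). ITGB2 had 70.0 and 57.9 CPM in G7 and 130.2 and 117 CPM in F3, a change of -0.95 ± 0.11 (adjusted p 3.23e-08, edgeR). ITGAL at -0.55 ± 0.11 and SELPLG at -0.35 ± 0.11 were lower as well, and the libraries of the lines did not overlap for any of the 4. The SELPLG call was lost without control replicate 1, 2 or 4, with adjusted p of 0.234, 0.226 and 0.0672. With no filter neither SELPLG (0.115) nor ITGAL (0.0637) passed. CD44 went the other way, with 400.2 and 409.7 CPM in G7 against 334 and 326 CPM in F3, but its change of 0.30 ± 0.11 had an adjusted p of 0.0537. It was called higher with library totals alone (0.0277), DESeq2 (0.0286), limma-voom (0.0453) and protein-coding genes only (0.0441), so that the count of 0 higher members depends on the setting. FERMT3, the kindlin that activates leukocyte integrins, was lower in G7 by 1.11 ± 0.11, and ITGA2B, the platelet integrin alpha chain, was higher by 2.42 ± 0.19.

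RiboLace asked which of these mRNAs were on active ribosomes. Mutant F3 was set against wild type within the 4 RiboLace libraries, where 8 members passed the filter on low counts. Of those, 3 fell and none rose, beside 5.59% and 6.18% of 9805 genes. ITGB2 had 34.2 and 38.1 CPM in mutant F3 and 153 and 135 CPM in wild type. The groups were widely apart and the log2 fold change was -2.01 ± 0.30 (adjusted p 2.83e-05, edgeR). These values rest on 40 and 18 reads in the mutant and 285 and 142 reads in wild type. ITGAL had 191 and 125 CPM in the mutant and 357 and 305 CPM in wild type, a change of -1.04 ± 0.28 (adjusted p 0.0135, edgeR). ITGB1 had 60.7 and 38.1 CPM in the mutant and 151 and 67.4 CPM in wild type, a change of -1.10 ± 0.33 (adjusted p 0.026, edgeR).

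The ITGB2 call held without any 1 RiboLace library. ITGAL and ITGB1 did not pass without wild-type replicate 1 (adjusted p 0.0665 and 0.596) or without mutant replicate 2 (0.355 and 0.244), and the ITGB1 value moved to -0.38 without that wild-type library. ITGB1 also missed the threshold with DESeq2 (0.105) and limma-voom (0.0577). SELPLG had 123 and 80.4 CPM in the mutant and 182 and 139 CPM in wild type, at -0.62 ± 0.27 (adjusted p 0.132, edgeR). CD44 and PECAM1 gave -0.65 and -0.66 and did not pass, although both did without wild-type replicate 2 (adjusted p 0.024 and 0.0223), and ITGA4 gave -0.23 with an interval from -0.77 to 0.31. ITGAX had 30.8 and 69.8 CPM in the mutant and 20.9 and 71.2 CPM in wild type. In both genotypes the second and shallower library was the high one, and no difference between genotypes could be read from it. ITGAM had 0 reads in both mutant libraries, and 5 and 0 reads in wild type, and was not tested. In the same fit the tetraspanin genes CD53, CD37 and CD63 fell by 2.73, 1.18 and 1.07 on the log2 scale, 3 of 7 tested.

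RiboLace was also set against total RNA in 1 fit of 8 libraries with F3 as the mutant match. In mutant F3, 6 of 9 members were lower in RiboLace and 1 was higher, beside 22.7% lower and 26.5% higher of 15338 genes. SELPLG, ITGB2, ITGAL and PECAM1 lay close together at -1.60 ± 0.21, -1.69 ± 0.22, -1.57 ± 0.21 and -1.62 ± 0.25. CD44 was lower by 0.55 ± 0.21 (adjusted p 0.0302, edgeR), a call lost under RLE scaling (adjusted p 0.0796), with DESeq2 (0.0913) and with protein-coding genes only (0.0681). ITGAM was called lower with 0 reads in RiboLace, and this call did not hold without mutant RiboLace replicate 1. An assumed floor of 3 reads over both libraries bounds it at 3.12-fold lower than F3 total RNA, each assay scaled on its own. ITGAX was higher by 1.20 ± 0.38 (adjusted p 0.0119, edgeR), and this was 1.83 without mutant RiboLace replicate 1 and 0.70 without replicate 2, where the call was lost (adjusted p 0.27). ITGA4 at -0.07 did not pass, nor did ITGB1 at -0.70 (adjusted p 0.0549, edgeR). ITGB1 passed with library totals alone (0.0484), no filter (0.00189), a fit of the mutant F3 libraries alone (0.0175) and without wild-type RiboLace replicate 1 or 2 (0.00328 and 0.00254). The median was -1.57, also with ITGAM at its bound, beside -0.02 for all genes, or 0.09 under RLE scaling.

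In wild type, 3 of 9 members were higher in RiboLace and 2 lower, beside 27.3% and 21.0% of genes. ITGAX was higher by 3.10 ± 0.36, with 20.9 and 71.2 CPM in RiboLace and 5.61 and 5.10 CPM in total RNA, each scaled within its own assay. This value was 2.10 without wild-type RiboLace replicate 2 and 3.81 without replicate 1, and passed in both cases. ITGA4 and ITGB1 were higher by 0.60 ± 0.20 and 0.59 ± 0.24, and SELPLG and ITGAL lower by 0.49 ± 0.19 and 0.47 ± 0.19. Adjusted p of these 4 by edgeR were 0.0148, 0.044, 0.0383 and 0.0472, and all 4 calls were lost without wild-type total RNA replicate 1 (0.153, 0.236, 0.203 and 0.185). Without wild-type RiboLace replicate 1, ITGA4 was 0.21 (adjusted p 0.458), ITGB1 turned to -0.24 (adjusted p 0.475) and SELPLG was -0.79 (adjusted p 0.002). Without wild-type RiboLace replicate 2, ITGB1 was 0.98. With library totals alone the median of all genes was -0.13. A fit of the 4 wild-type libraries alone called ITGAX and ITGA4. SELPLG and ITGAL also missed the threshold by edgeR under RLE scaling (0.0726 and 0.088) and with protein-coding genes only (0.0729 and 0.0833). With DESeq2 their adjusted p were 0.0589 and 0.0598. ITGB1 did not pass with DESeq2 (0.168), limma-voom (0.121) or library totals alone (0.127 by edgeR), nor ITGA4 with library totals alone (0.0504 by edgeR). ITGB2 gave 0.37 (adjusted p 0.0618, edgeR) and passed under RLE scaling (0.0235), with DESeq2 (0.00309), limma-voom (0.0498) and protein-coding genes only (0.0216), and without wild-type RiboLace replicate 2 (0.0311). CD44 gave 0.03. PECAM1 gave -0.09, and passed at -0.72 (adjusted p 0.0167) without wild-type RiboLace replicate 1. The members' median was 0.03, beside 0.01 for all genes.

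The difference between those RiboLace over total RNA ratios, mutant F3 minus wild type, asks whether ribosome association changed beyond the RNA level. By the labels, handling of the total RNA libraries cannot be told apart from genotype in it. The difference was lower for 2 of 9 members and higher for none, beside 1.01% and 0.482% of genes. ITGB2 had a difference of -2.06 ± 0.27 (adjusted p 0.000607, edgeR). Its total RNA was 130.2 and 117 CPM in F3 and 124 and 125 CPM in wild type, so the groups overlapped there and were apart in RiboLace. PECAM1 had a difference of -1.52 ± 0.33 (adjusted p 0.0249, edgeR), with 58.1 and 38.1 CPM in mutant RiboLace and 100.2 and 55.1 CPM in wild-type RiboLace. For PECAM1 the RiboLace libraries overlapped, while total RNA was higher in F3.

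All 9 estimates were negative, and the median was -1.28, or -1.20 without ITGAM, whose estimate rests on 0 reads and is not given, beside -0.04 for all genes (0.09 with library totals alone, where 47.7% of calls were higher and 52.3% lower, against 32.3% and 67.7% with TMM). SELPLG, ITGAL and ITGAX gave -1.11, -1.09 and -1.90 with adjusted p of 0.0532, 0.0534 and 0.0532 by edgeR, and ITGB1 gave -1.28 (0.0833). SELPLG and ITGAL passed with no filter, DESeq2 and protein-coding genes only, ITGAX with no filter and protein-coding genes only, and ITGB1 with no filter. Leaving out single libraries moved these values. SELPLG and ITGAL also passed without wild-type RiboLace replicate 2 or mutant RiboLace replicate 1. ITGAX was -2.66 (adjusted p 6.6e-05) without wild-type RiboLace replicate 1 and -0.95 (adjusted p 0.137) without replicate 2. ITGB1 ran from -1.80 without mutant RiboLace replicate 1 to -0.49 without wild-type RiboLace replicate 1, and passed at -1.71 (adjusted p 4.72e-05) without wild-type RiboLace replicate 2. ITGA4 and CD44 gave -0.68 and -0.58 with intervals from -1.25 to -0.10 and from -1.15 to -0.01, and did not pass. The ITGB2 call held without any 1 library. With total RNA of both lines as the match it was -1.66 with an adjusted p of 0.129. The PECAM1 call was lost in that setting (0.0783), with limma-voom (0.0854) and without any of 6 of the 8 libraries, where the adjusted p reached 0.204 and the value -0.93 without wild-type RiboLace replicate 1. Counts of members called with a library left out have no share of all genes beside them, and are not results about the members. Summed myeloid markers were 3016 to 4669 CPM in mutant RiboLace and 6249 to 7607 CPM in total RNA of both mutant lines, against 3269 to 4228 CPM in wild-type RiboLace and 3166 to 3854 CPM in wild-type total RNA, each scaled within its assay. Their part in the differences was not tested. Among related genes, CD53, CD37 and CD63 had differences of -2.05, -1.33 and -1.16 and passed, 3 of 9 tetraspanins. CD74 and HMMR, a hyaluronan receptor gene, passed at -1.28 and -1.47. No gene of the other 5 lists passed in either direction.

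**Figure D4:**
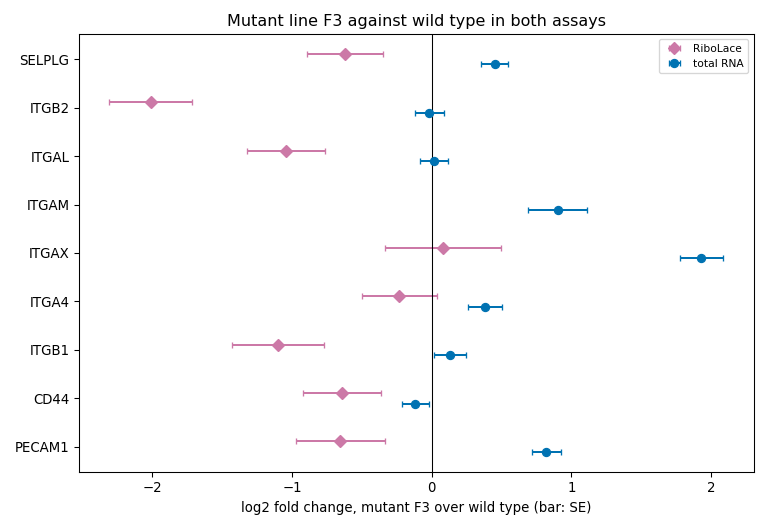
Log2 fold change of mutant F3 over wild type (horizontal axis) for each member in RiboLace (diamonds) and in total RNA (circles, F3 fitted alone against wild type), with bars of 1 SE; ITGAM has no RiboLace value. ITGB2 lies at -2.01 in RiboLace and -0.02 in total RNA, and each member with both values lies lower in RiboLace.

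RUNX1 binds DNA through a core that reads TGTGGT, and the window of 250 bases before each annotated start was searched for it on both strands. Promoter windows from the RefSeq table of GRCh38.p14 matched 4 members, ITGAM, ITGA4, ITGB1 and CD44, with 5 windows in all. None of the 5 held these letters, whereas 3855 of all 35116 windows did. No match says only that the letters are not in these windows.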

How the data were processed

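Read counts per gene of 14 libraries were deposited by the authors as 1 table of whole numbers, keyed by Ensembl ID. STAR 2.6.0b, DESeq2 and GRCh38 are named without roles, per the submitters' processing notes. Counter, annotation and strandedness: not given in the sources used here. Of 58037 IDs, 57433 matched GENCODE 29. Members and gene lists were chosen with earlier results of these data known. All members were named, and up to 3 genes per list (smallest adjusted p among called genes of at least 5 CPM, otherwise the highest CPM); genes named as nearest in pattern came from those of at least 5 CPM.

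Each of 8 comparisons was fitted over all genes with edgeR 4.0.16 in R 4.3.3 (filterByExpr, TMM, quasi-likelihood F-test, Benjamini-Hochberg). Calls were made at an adjusted p under 0.05. The fits were also run on simulated counts with the same set spread in every library, which cannot show how they bear RiboLace scatter. HHT had line as a covariate. SE is the absolute log2 fold change over the square root of F, and intervals are 2 SE on either side. The fit of both assays gives them 1 spread per gene, and where RiboLace libraries scatter more its p-values come out too small. Alternatives were RLE, library totals, no filter, DESeq2 1.42.0, limma-voom (limma 3.58.1), protein-coding genes, single lines, other matches, a replicate block and each library left out. Replicate pairs differed beyond sampling noise (chi-square per degree of freedom 3.14 to 12.5). Title numbers 1 and 2 are F3 and 3 and 4 are G7 in both treatments. The r of same-numbered deviations, 0.389 to 0.475, therefore carries line, already a covariate. Within lines r was 0.078 and 0.223. The submitters' descriptions number libraries otherwise, and by them control 3 and HHT 4 of G7 would match. Pairing by those numbers was not tested, and the replicate block used title numbers.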

Additional observations from a re-analysis of the deposited data

Results flagged for a closer look

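ITGAX responded to HHT differently in the lines, with a G7 minus F3 difference of 0.99 on the log2 scale (adjusted p 0.0141, edgeR interaction). The RiboLace over total RNA ratio differed between mutant F3 and wild type for ITGB2, by -2.06 (adjusted p 0.000607, edgeR), and for PECAM1, by -1.52 (adjusted p 0.0249, edgeR). In each of these 3 cases the difference itself was tested.

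Single libraries stood apart from the other 3 of their group for ITGAM after HHT, where 2.89 CPM in the third library left a gap of 0.892 of the whole range, and for CD44 after HHT, where 271 CPM in the fourth library left a gap of 0.882. Both are above the 95% limit of Dixon's test, and chance flags about 1 in 20 groups. The CD44 range was narrow, and ITGAM had few reads.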

How the results depend on the processing

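For HHT against control, 8 of 9 members were called under all other scalings, filters and tools, without the line covariate, with the replicate block and without any library, and 9 in each line alone. For the line difference 1 member was called under the other scalings and tools, and 0 to 3 with a library left out. For mutant against wild type in total RNA, 2 members became 4 with no filter, 1 with limma-voom, 5 in F3 or G7 alone, 6 with line means, 5 with the replicate block on F3, and 0 to 2 with a library left out. For G7 against F3, 4 became 2 with no filter, 3 to 4 with a library left out, and 5, with CD44 called higher, with library totals alone, DESeq2, limma-voom or protein-coding genes only. For RiboLace by genotype, 3 became 1 to 5 with a library left out and stayed 3 with the replicate block. For RiboLace against total RNA, the mutant had 5 to 8 with a library left out, and wild type 3 with library totals alone, 3 with DESeq2, 2 in its own fit and 1 to 4 with a library left out. For the difference of those ratios, 2 became 6 with no filter, 4 with DESeq2, 1 with limma-voom, 5 with protein-coding genes only, 0 with both lines as match, and 1 to 8 with a library left out. By title numbers no RiboLace or F3 and wild-type libraries were paired, with r of -0.06 and -0.028. The cause of these moves was not tested.

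Signs turned only for values that did not pass in the main setting, except ITGB1 in wild-type RiboLace over total RNA. With a library left out, ITGAX under HHT ran from -0.025 to 0.32, ITGA4 in the line difference from -0.079 to 0.17 and in G7 against F3 from -0.059 to 0.18. In mutant against wild type, CD44 ran from -0.034 to 0.11 and ITGB1 from -0.15 to 0.21. In RiboLace by genotype, ITGAX ran from -0.66 to 1.09 and ITGA4 from -0.49 to 0.072. In RiboLace over total RNA, ITGA4 in the mutant ran from -0.16 to 0.14, and in wild type ITGB1 from -0.24 to 0.98, CD44 from -0.40 to 0.27 and PECAM1 from -0.72 to 0.21. ITGAX under HHT was -0.32 in F3 alone. ITGAL in mutant against wild type was 0.015 in F3 alone and 0.014 with the replicate block, CD44 was -0.12 in both settings, and ITGB1 -0.096 in G7 alone. ITGA4 in mutant RiboLace over total RNA was 0.045 with RLE, 0.042 with DESeq2, 0.037 with protein-coding genes and 0.016 in its own fit. CD44 in wild type was -0.12 with library totals alone and -0.092 with no filter.

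RiboLace libraries held as few as 465052 counts. There ITGAM had 0 to 5 reads per library and ITGAX 33 to 75, and in mutant replicate 2 ITGB2, ITGB1 and PECAM1 had 18 reads each.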
